A study of Mus musculus with 4 samples.

Results

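The receptors for the neuropeptides PACAP and VIP and for the hormones oxytocin and vasopressin were followed in the mouse adrenal gland after a brief exposure to dexamethasone. The set was given by name and holds 8 of the 54532 genes in the count table. It comprises the receptor genes Adcyap1r1, Vipr1, Vipr2, Oxtr, Avpr1a and Avpr1b and the ligand genes Adcyap1 and Vip. The names were chosen by the difference in TMM-scaled levels between the dexamethasone and PBS libraries as well as by their role. That difference is therefore given for them below as a description, without a p-value. Whether the fit across all genes called them is stated beside the share of all genes called, and is not a test. Adult male C57BL/6 mice received either dexamethasone, a synthetic glucocorticoid, at 10 µg into the peritoneum, or the vehicle, phosphate-buffered saline (PBS), and right adrenal glands were taken 1 h later. Each treatment had 5 mice, whose whole glands were pooled into 2 libraries, so n = 2 libraries per group throughout. A library is a pool of several animals and of all cell types of cortex and medulla, and fewer cells of a type cannot be told apart from less RNA per cell. Total counts ran from 21904510 to 26948588 per library.

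PACAP and VIP are related peptides of the secretin family. PACAP is released by the splanchnic nerve onto the chromaffin cells of the adrenal medulla and is known as a transmitter that sustains catecholamine secretion there. Its preferred receptor is PAC1, the product of Adcyap1r1, which couples to the stimulatory G protein Gs, and so to adenylyl cyclase and cyclic AMP, and in some splice forms also to phospholipase C. VPAC1 and VPAC2, the products of Vipr1 and Vipr2, bind VIP and PACAP with similar affinity and act mainly through Gs. The oxytocin receptor (Oxtr) and the vasopressin receptors V1a (Avpr1a) and V1b (Avpr1b) couple mainly to Gq, which activates phospholipase C beta, and thereby to calcium release and protein kinase C. V1b is best known from pituitary corticotrophs, where vasopressin enhances corticotropin release.

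The sequences before the start sites are shown for Adcyap1r1 and Oxtr, the receptor genes whose levels differed most clearly between the groups in opposite directions, and for Vip, whose window holds a cyclic AMP response element core. They are RefSeq promoter windows on GRCm38.p6, written 5′ to 3′ along the gene, and capitals mark TGACG, the core of the cyclic AMP response element. For Oxtr, whose RefSeq start lies inside the deposited gene, only the 132 bases outside that gene are printed.
Adcyap1r1, chr6:55451728-55451977, plus strand: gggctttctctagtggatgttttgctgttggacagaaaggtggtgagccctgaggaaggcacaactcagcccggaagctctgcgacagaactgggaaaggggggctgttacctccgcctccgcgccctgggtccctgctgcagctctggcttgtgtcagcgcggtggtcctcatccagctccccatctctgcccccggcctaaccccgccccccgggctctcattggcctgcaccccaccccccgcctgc
Oxtr, chr6:112489944-112490075, minus strand: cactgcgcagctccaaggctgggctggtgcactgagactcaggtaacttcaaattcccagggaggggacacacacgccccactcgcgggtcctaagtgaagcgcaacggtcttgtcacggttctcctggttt
Vip, chr10:5638968-5639217, plus strand: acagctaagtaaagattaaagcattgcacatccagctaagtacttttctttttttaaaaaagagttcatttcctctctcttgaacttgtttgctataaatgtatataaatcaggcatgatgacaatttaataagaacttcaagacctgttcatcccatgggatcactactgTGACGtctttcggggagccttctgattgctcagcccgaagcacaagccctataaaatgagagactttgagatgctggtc

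A promoter entry was found for 7 of the 8 genes. The 250 bases before each RefSeq start were searched on both strands for AGAACA, the core motif bound by the glucocorticoid receptor, and for TGACG. None of the 7 genes held AGAACA in this window, against 16.1% of 32851 promoters of the same length. TGACG was present before Vipr1, Adcyap1, Vip and Avpr1a, against 17.8% of all promoters. In Vip it began 79 bases before the start and in Avpr1a 165 bases before it, whereas the windows of Adcyap1r1, Vipr2 and Oxtr held neither motif. These matches are a description of the letters in a short window.

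Adcyap1r1, the PACAP receptor gene, was the most abundant of the 8 transcripts in every library. It lies on chromosome 6 (GRCm38, 55451978 to 55501451, plus strand, ENSMUSG00000029778). Its level was 166.7 and 162.6 CPM (each count relative to its library total after TMM scaling) in dexamethasone replicates 1 and 2, and 69.8 and 83.7 CPM in PBS replicates 1 and 2. Both dexamethasone libraries lay above both PBS libraries. The mean of the treated pools was 165 ± 2.91 CPM and that of the PBS pools 76.8 ± 9.87 CPM (SD, n = 2 each). The values rest on 1742 to 4480 counts per library. The log2 fold change, dexamethasone over PBS, was 1.10 ± 0.15 (SE of the fit across all genes, n = 2 per group), a 2.15-fold higher level. It lay above that of 96.8% of all tested genes, a rank that carries the difference known when the gene was named.

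Both VIP receptor genes were weakly detected. Vipr1 (ENSMUSG00000032528, chromosome 9, 121642716 to 121672954), the gene of VPAC1, stood at 1.97 and 1.64 CPM in dexamethasone replicates 1 and 2 and at 1.69 and 1.06 CPM in PBS replicates 1 and 2. The groups overlapped, and the log2 fold change of 0.38 ± 0.38 (SE) was no larger than its own error. Vipr2 (ENSMUSG00000011171, chromosome 12, 116077726 to 116146261), the gene of VPAC2, was counted 22 and 18 times after dexamethasone and 12 and 7 times after PBS. These counts gave 0.819 and 0.654 CPM against 0.452 and 0.336 CPM, so both dexamethasone libraries lay above both PBS libraries. Its log2 fold change was 0.88 ± 0.51 (SE). The 7 counts of PBS replicate 2 have an exact Poisson 95% interval of 2.81 to 14.4 counts, which takes in the 12 counts of PBS replicate 1 and reaches the interval of every other library. Such intervals cover single libraries and do not compare the groups. With an SE of 0.51 from 2 pools per group, the difference in Vipr2 was not resolved.

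The ligand genes gave little or no signal. Adcyap1, which encodes PACAP, had a single count in dexamethasone replicate 1 and another in PBS replicate 1, and 0 counts in both replicates numbered 2. With 2 counts in all, it had too few counts to be tested, and a count of 0 allows up to 0.109 CPM in dexamethasone replicate 2 and 0.144 CPM in PBS replicate 2 (3 counts per library). Its deposited length was 2088 bases, against 3777 merged exon bases in the GENCODE M21 annotation. Whether reads in the other exon bases were counted is not known, so these limits hold for the deposited gene. Vip (ENSMUSG00000019772, chromosome 10, 5639218 to 5647617), which encodes VIP, was counted 36 and 16 times after dexamethasone and 14 and 34 times after PBS. At 1.34 and 0.582 CPM against 0.527 and 1.63 CPM, the spread of Vip between pools of the same treatment was wider than the difference between the group means. The log2 fold change was −0.14 ± 0.62 (SE), 0.85 without PBS replicate 2 and −0.87 without dexamethasone replicate 1, so that it had no stable direction.

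Oxtr, the oxytocin receptor gene (ENSMUSG00000049112, chromosome 6, 112473683 to 112489943, minus strand), was lower after dexamethasone. It stood at 17.0 and 12.6 CPM in dexamethasone replicates 1 and 2 and at 27.1 and 37.3 CPM in PBS replicates 1 and 2, from 346 to 776 counts. Both PBS libraries lay above both dexamethasone libraries, and PBS replicate 2 was the highest. The PBS mean was 32.2 ± 7.21 CPM and the dexamethasone mean 14.8 ± 3.11 CPM (SD, n = 2 each). The log2 fold change was −1.12 ± 0.21 (SE), a 2.18-fold lower level. It ran from −1.36 to −0.89 when each library was left out in turn. Of all tested genes 1.95% had a lower log2 fold change, a rank that carries the difference known when the gene was named.

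The vasopressin receptor genes were low or silent. Avpr1a (ENSMUSG00000020123, chromosome 10, 122448499 to 122453452), the gene of V1a, was counted 88 and 70 times after dexamethasone and 104 and 87 times after PBS. The levels were 3.28 and 2.54 CPM against 3.92 and 4.18 CPM, with both PBS libraries above both dexamethasone libraries, and the log2 fold change was −0.48 ± 0.27 (SE). Genes of its length tended to the same side: the median log2 fold change was −0.18 among the 500 protein-coding genes of nearest length. With the trend of fold change with gene length removed, Avpr1a stood at −0.34. Avpr1b, the gene of V1b, had 0 counts in all 4 libraries, which allows up to 0.109 to 0.144 CPM per library. These limits, like the Poisson interval, cover counting error only.

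**Figure D1:**
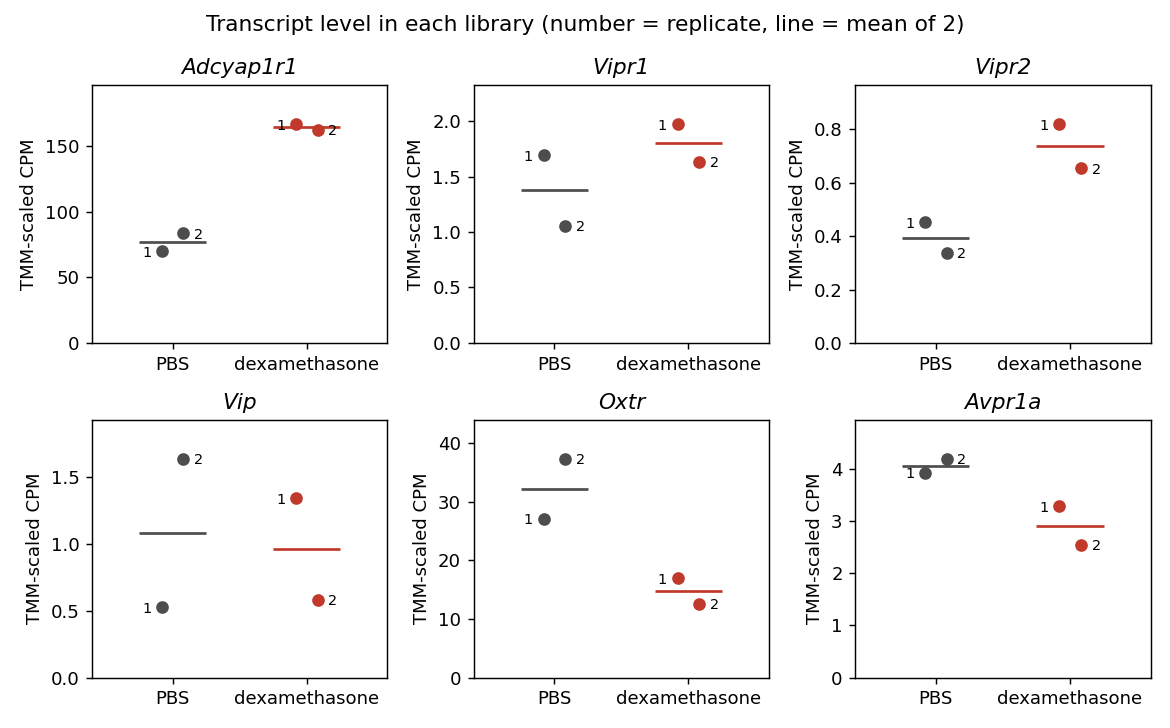
TMM-scaled CPM of the 6 receptor and ligand genes with enough counts for the fit, in the 2 PBS and 2 dexamethasone libraries (points, with replicate number; lines are group means; each panel has its own linear axis from 0). Adcyap1r1 lies between 69.8 and 83.7 CPM after PBS and at 162.6 and 166.7 CPM after dexamethasone, Oxtr is lower in both dexamethasone libraries, and the Vip groups overlap.

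Of the 6 genes that passed the filter on low counts, the fit across all 16027 genes called Adcyap1r1 higher and Oxtr lower (edgeR's quasi-likelihood test, Benjamini-Hochberg threshold of 0.05). With the replicate number as a block, Adcyap1r1 alone of the 6 was called, and Oxtr, at −1.12, was not. Among all genes tested, 3.26% were called higher, 1.37% lower and 4.63% either way. In the same edgeR fit 4403 of the 16027 had an unadjusted p under 0.05. DESeq2 called 1784 and limma-voom 722 of the 16027. Libraries that did not overlap were seen for 2 genes with dexamethasone above (Adcyap1r1 and Vipr2) and 2 with dexamethasone below (Oxtr and Avpr1a), against 30.8% and 29.7% of all tested genes. The genes were named with this contrast known, so their calls are not a test of it. These counts are given beside the background and nothing is read from them.

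Fold changes in these libraries ran with gene length, with a median log2 fold change of −0.42 in the decile of shortest protein-coding genes and 0.33 in the decile of longest. Adcyap1r1, with a deposited length of 6601 bases, is a long transcript. The 500 protein-coding genes of nearest length (6384 to 6826 bases) had a median log2 fold change of 0.14, and 97.8% of them lay below Adcyap1r1. With the length trend removed from each library its log2 fold change was 0.95. Oxtr, at 4790 bases, lay in a part of the trend close to 0, with a median of 0.06 among its nearest 500 genes, of which 1.6% lay lower, and it stood at −1.17 with the trend removed. The ranks of Adcyap1r1 and Oxtr carry the difference known when they were named.

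**Figure D2:**
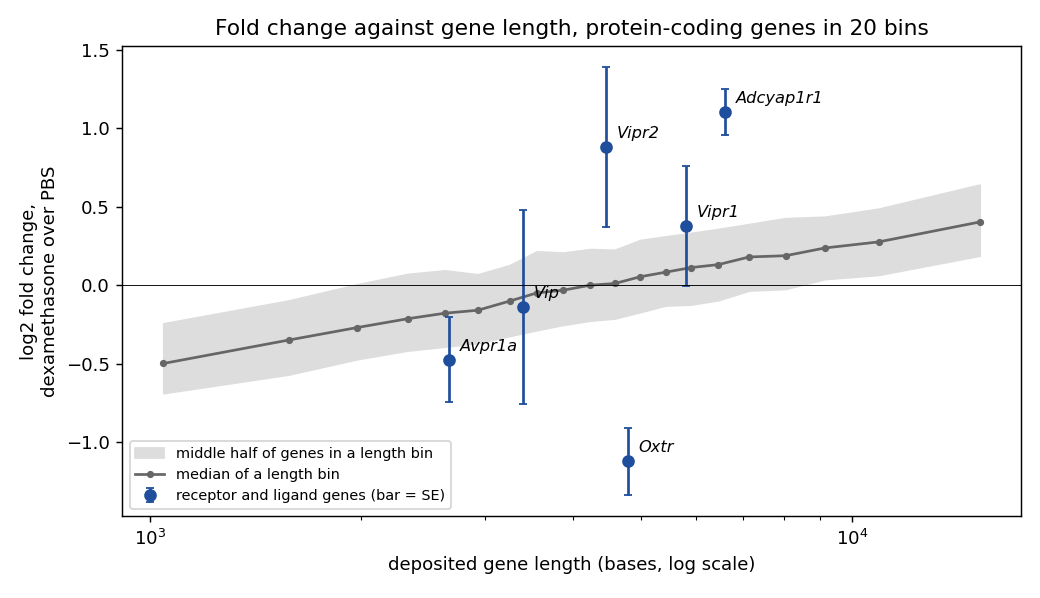
Log2 fold change, dexamethasone over PBS, against deposited gene length in bases (log axis). The line and band are the median and the interquartile range of protein-coding genes in 20 length bins, and points are the 6 measured receptor and ligand genes with the SE of the fit. Adcyap1r1 lies above and Oxtr below the band of genes of their length, the bar of Vipr2 stays above it, and those of Avpr1a, Vip and Vipr1 reach it.

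Per length, the 8 genes spanned several orders of magnitude. In PBS libraries the level of Adcyap1r1 was 10.6 and 12.7 CPM per kilobase, that of Oxtr 5.66 and 7.79, and that of Avpr1a 1.47 and 1.57 CPM per kilobase, and these 3 ranges did not overlap. Vipr1 stood at 0.292 and 0.182 CPM per kilobase and Vip at 0.155 and 0.480, so these neighbours in the order could not be separated. Vipr2 followed at 0.101 and 0.0754 CPM per kilobase, below both in the PBS libraries but from only 12 and 7 counts. After dexamethasone Vipr2, at 0.147 to 0.183 CPM per kilobase, overlapped Vip, at 0.171 to 0.394. After dexamethasone the order of the first 3 genes was the same, at 24.6 to 25.3, 2.63 to 3.54 and 0.953 to 1.23 CPM per kilobase. The ratio of Adcyap1r1 to Oxtr within a library was 1.87 and 1.63 in PBS replicates 1 and 2 and 7.13 and 9.38 in dexamethasone replicates 1 and 2. Adcyap1r1 made up 67.8% and 66.1% of the counts of the 6 receptor genes in the PBS libraries and 87.9% and 90.3% in the dexamethasone libraries. These ratios and shares, the latter of counts not scaled for length, describe genes that were named with this difference known.

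**Figure D3:**
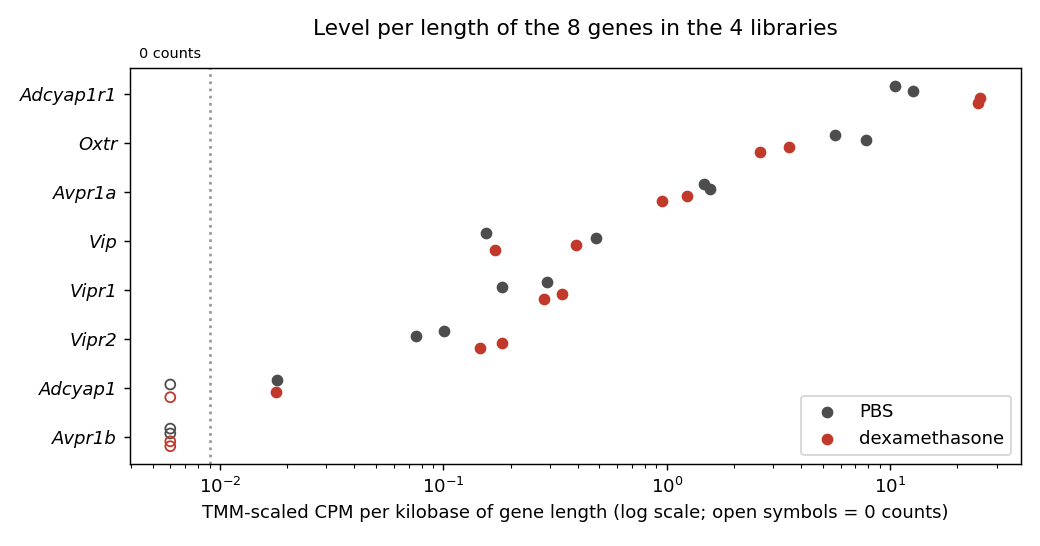
TMM-scaled CPM per kilobase of gene length (log axis) of the 8 genes in each library, ordered by the mean over the 4 libraries; open symbols left of the dotted line mark libraries with 0 counts. Adcyap1r1, Oxtr and Avpr1a take separate ranges, from 0.953 to 25.3 CPM per kilobase, Vip and Vipr1 overlap, and Avpr1b has 0 counts in all 4 libraries.

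Chromaffin markers were examined beside these values, since PAC1 is known from chromaffin cells. The markers Chgb and Chga, granin genes, and Th, Dbh and Pnmt, enzyme genes of catecholamine synthesis, led the list, which was well expressed. On average over the libraries, Chgb made up 44.5% and Chga 35.0% of the summed level of the list. The summed level of the 10 markers was 11376 and 8705 CPM in dexamethasone replicates 1 and 2 and 7851 and 11967 CPM in PBS replicates 1 and 2, so the groups overlapped. By edgeR 0 of the 10 were called, with 0 at an unadjusted p under 0.05, 0 by DESeq2 and 0 by limma-voom. Per 1000 CPM of summed markers Adcyap1r1 stood at 14.7 and 18.7 CPM after dexamethasone and at 8.89 and 7.00 CPM after PBS. This ratio carries the difference known when the gene was named. Oxtr was at 1.49 and 1.44 against 3.45 and 3.12 on the same scale. The libraries with more Vip, dexamethasone replicate 1 and PBS replicate 2, were also those with the higher chromaffin sum. The part of cell content in the Adcyap1r1, Oxtr and Vip values was not tested.

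Markers of other cells gave the following. Their counts at an unadjusted p under 0.05 stand beside 4403 of all 16027 tested genes. The cortex sum was 46261 and 42880 CPM in the treated pools against 61919 and 62808 CPM in the PBS pools. Of its 8 genes 2 were called lower by edgeR (Nr5a1 and Fdx1), and 5 had an unadjusted p under 0.05. DESeq2 called 4 and limma-voom 2. The median log2 fold change of the list was −0.48. Division by this sum, itself lower after dexamethasone, makes any fall smaller. Per 1000 CPM of that sum Oxtr stood at 0.367 and 0.293 CPM after dexamethasone and at 0.438 and 0.594 CPM after PBS, so the groups were closer together but did not overlap. On this scale Avpr1a overlapped, at 0.0708 and 0.0593 against 0.0632 and 0.0666. The neuron sum was 83.3 and 69.1 CPM in the treated pools against 49.1 and 68.3 CPM in the PBS pools, with 1 of 6 genes higher (Elavl4), and the sum of Schwann and sustentacular markers was 45.8 and 45.0 CPM against 33.4 and 34.9 CPM, with 0 of 5 called by edgeR, 2 at an unadjusted p under 0.05, 1 by DESeq2 and 0 by limma-voom. Per 1000 CPM of the Schwann sum Adcyap1r1 stood at 3642 and 3617 CPM against 2089 and 2396 CPM. The endothelial sum of 6 genes ran from 844 to 878 CPM after dexamethasone and from 806 to 851 CPM after PBS, with 0 called by edgeR, 1 at an unadjusted p under 0.05 and 0 by DESeq2 or limma-voom. In the remaining lists 2 of 6 macrophage genes were higher (Mrc1 and Cd163), and 1 of 5 glomerulosa genes (Agtr1b), 1 of 7 capsule genes (Rspo3) and 3 of 5 red cell genes were lower, all of them globin genes whose near-identical copies can share reads. Of the smooth muscle genes 0 of 5 were called by edgeR (0 at an unadjusted p under 0.05, 0 by the other tools) and of the adipocyte genes 0 of 5 (2 at an unadjusted p under 0.05, 0 by the other tools). Lymphocyte markers were too low to be tested, and of the kidney markers Umod, Kap and Slc34a1 had at most 3 counts in all. The part of these cells in the receptor values was not tested.

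**Figure D4:**
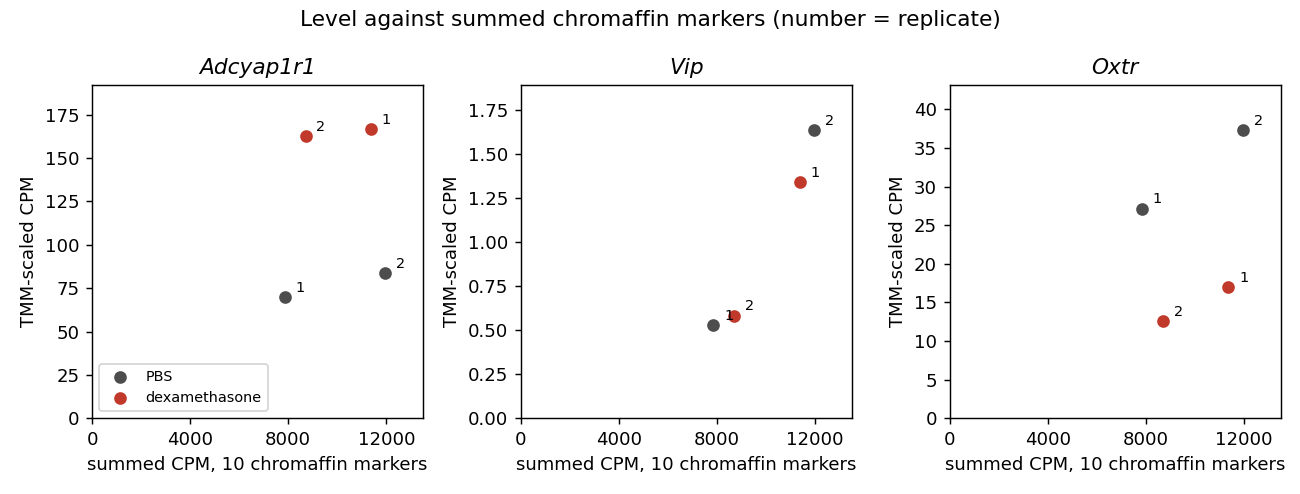
TMM-scaled CPM of Adcyap1r1, Vip and Oxtr against the summed CPM of 10 chromaffin markers in each library (both axes linear from 0; point labels are replicate numbers). At chromaffin sums of 7851 to 11967 CPM, Adcyap1r1 separates the dexamethasone from the PBS libraries, while Vip is high in the 2 libraries with the higher sum.

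The genes with the most similar profile to each receptor were found by the distance between log2 CPM values centred on the gene's mean over the 4 libraries, among 14248 other protein-coding genes. For Adcyap1r1 these were Lipg, which encodes endothelial lipase, Elavl4, a neuronal RNA-binding protein gene, and Necab1, a calcium-binding protein gene, at distances of 0.0454 to 0.0652. Necab1 stood at 10.2 and 10.3 CPM in the treated pools against 4.44 and 5.10 CPM in the PBS pools. In all, 53 genes lay within a distance of 0.2 of Adcyap1r1. For Oxtr the nearest were Lmo2, a transcriptional cofactor gene, Pamr1 and Gm1673, at 0.113 to 0.150, and 10 genes lay within 0.2. Avpr1a had 727 genes within 0.2, the nearest being Cfdp1, Mpc2 and Rbx1, so its profile was a common one. Vipr1 was nearest to Rab11fip4, Mmp11 and Naip2, with 76 genes within 0.2, and Vip, nearest to Tceal6, Hspa1l and Ccdc27, had 0 genes within 0.2. With 4 libraries such likeness describes a profile and nothing more.

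The pathway around the receptors was examined with 9 lists of 100 other genes, of which 76 were tested. In all, 8 of the 76 rose, 2 fell and 66 did not pass, or 13.2% called against 4.63% of all genes tested. The median log2 fold change was 0.13 over the 76 genes and 0.01 over all genes. The called pathway genes were long, with a median length of 7222 bases. The median was 5121.5 bases for the 76 tested pathway genes and 4412 bases for all tested protein-coding genes. With the length trend removed 6 of the 76 passed, or 7.89% against 2.96% of all genes, and under the replicate block 3 passed, or 3.95% against 2.08%. The counts of each list below are set beside the 3.26% of all genes called higher and 1.37% called lower. Counts at an unadjusted p under 0.05 are set beside 4403 of all 16027 tested genes. The lists were chosen with earlier results of these data known, so these shares are not a test of the pathway.

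Among the Gs protein genes and adenylyl cyclases, the next step after PAC1 and the VIP receptors, 3 of 11 tested genes rose, 0 fell and 8 did not pass. The list's median log2 fold change was 0.36. Adcy1, the gene of a calcium-stimulated cyclase (ENSMUSG00000020431, chromosome 11, 7063489 to 7178506), stood at 28.8 and 25.3 CPM in the treated pools against 10.2 and 11.2 CPM in the PBS pools, or 1.34 ± 0.17 on the log2 scale (SE; edgeR adjusted p = 0.00751). Adcy5, the gene of a cyclase inhibited by calcium (chromosome 16, 35154877 to 35305738), stood at 45.4 and 50.2 CPM against 19.2 and 22.4 CPM, or 1.20 ± 0.16 (edgeR adjusted p = 0.00776). Adcy9 rose from 67.3 and 52.7 CPM to 103 and 122 CPM, or 0.91 ± 0.17 (edgeR adjusted p = 0.0233). In each of these 3 genes both dexamethasone libraries lay above both PBS libraries. Adcy6 missed the threshold at 0.59 ± 0.14 (edgeR adjusted p = 0.0504) and passed in 5 of the 11 alternative fits, namely library totals, no filter, DESeq2, limma-voom and without PBS replicate 1. Also short of the threshold were Adcy3 at 0.40 and Adcy8 at −0.67, and Gnas, the Gs alpha subunit gene, was at −0.06. Adcy1 and Adcy5 passed in every alternative fit, with log2 fold changes of 1.01 and 1.03 once the length trend was removed, and Adcy9 in all but the fit with the replicate block.

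Among genes of the Gq pathway, which the oxytocin and V1a receptors use, 2 of 21 rose, 1 fell and 18 did not pass, with a median log2 fold change of 0.26. Gna14, which encodes an alpha subunit of the Gq class (ENSMUSG00000024697, chromosome 19, 16435667 to 16610818), fell from 142 and 141 CPM after PBS to 72.2 and 85.7 CPM after dexamethasone, a log2 fold change of −0.84 ± 0.15 (SE, edgeR adjusted p = 0.019). It passed in all alternative fits but the replicate block. The genes of the ubiquitous subunits, Gnaq and Gna11, were at 0.21 and −0.07. Plcb4, a phospholipase C beta gene, rose from 22.0 and 26.5 CPM to 40.5 and 40.6 CPM (0.74 ± 0.16, edgeR adjusted p = 0.0358), and Prkce, the gene of protein kinase C epsilon, rose from 27.5 and 27.9 CPM to 39.8 and 46.1 CPM (0.63 ± 0.15, edgeR adjusted p = 0.049). With the length trend removed Plcb4 stood at 0.51 and Prkce at 0.46, and neither passed, nor did either without dexamethasone replicate 2 (0.74 and 0.52) or under the block. Prkce also missed the threshold with RLE scaling (0.62) and in limma-voom (0.63). Prkcb, Prkch and Itpr2 had 0.65, 0.52 and 0.41 and did not pass.

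Among receptor kinases and arrestins, which switch off activated receptors, 1 of 7 rose and 6 did not pass. Grk3 went from 14.7 and 16.0 CPM after PBS to 25.8 and 32.0 CPM after dexamethasone, or 0.92 ± 0.17 on the log2 scale (SE; edgeR adjusted p = 0.0246). It did not pass with the length trend removed (0.69), without dexamethasone replicate 2 (0.75) or under the block. Grk5, Grk6 and Grk2 stood at 0.32, 0.10 and −0.09.

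Of the other genes of the oxytocin and vasopressin system, Lnpep, the gene of the membrane aminopeptidase that cleaves oxytocin and vasopressin, was the sole one with enough counts. It stood at 324 and 345 CPM in the treated pools against 201 and 166 CPM in the PBS pools, a log2 fold change of 0.87 ± 0.15 (SE, edgeR adjusted p = 0.0204), and did not pass with the length trend removed (0.50) or under the block. Its listed length of 14144 bases is far above that of most genes. The hormone genes Oxt and Avp had 0 counts in all 4 libraries and Avpr2, the V2 receptor gene, had 1 count in all.

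Among peptide processing genes, 1 of 8 rose and 7 did not pass. Pcsk1, which encodes the prohormone convertase PC1/3 (ENSMUSG00000021587, chromosome 13, 75089826 to 75134861), stood at 111 and 87.8 CPM in the treated pools against 42.6 and 56.9 CPM in the PBS pools, a log2 fold change of 1.00 ± 0.18 (SE, edgeR adjusted p = 0.0233). It passed in every alternative fit but the replicate block. Pcsk2, Cpd and Pcsk1n stood at 0.27, 0.37 and −0.30. None of 8 genes of peptide breakdown passed in edgeR (1 at an unadjusted p under 0.05, 1 by DESeq2 and 0 by limma-voom), and Thop1, the gene of thimet oligopeptidase, came nearest at −0.53 ± 0.15 (edgeR adjusted p = 0.0689).

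Other receptors of the secretin family gave no call. Of 15 receptor and accessory protein genes 9 were tested and 0 passed in edgeR (3 at an unadjusted p under 0.05, 1 by DESeq2 and 0 by limma-voom). Gipr, the receptor gene of the gut hormone GIP, was counted 26 and 23 times after dexamethasone and 4 and 7 times after PBS, with a log2 fold change of 1.91 ± 0.57 (SE, edgeR adjusted p = 0.08). Calcrl, which encodes the receptor shared by CGRP and adrenomedullin, stood at 0.63 ± 0.18 (edgeR adjusted p = 0.0734) and Pth1r, the parathyroid hormone receptor gene, at −0.57 ± 0.20 (edgeR adjusted p = 0.11). The secretin family ligand genes were nearly silent: 12 of 13 had too few counts for the fit, and Adm, the adrenomedullin gene, stood at −0.30 ± 0.22 (edgeR adjusted p = 0.396).

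Of 10 tested genes reported to be induced by PACAP in cultured bovine chromaffin or rat PC12 cells, 0 rose in edgeR (1 at an unadjusted p under 0.05 as higher), 1 fell and 9 did not pass. The median log2 fold change of the list was −0.34. The gene that fell was Nr4a1, an orphan nuclear receptor gene that responds to many stimuli. It stood at 32.5 and 34.5 CPM in the dexamethasone libraries and 481 and 217 CPM in the PBS libraries, with a log2 fold change of −3.38 ± 0.33 (SE, edgeR adjusted p = 0.00426). Stc1, the stanniocalcin 1 gene, was at 0.58, and the immediate early genes Fos and Egr1 were at −1.26 and −1.12 and did not pass. Fos and Egr1 were lowest in dexamethasone replicate 1, at 1.90 and 11.8 CPM against 7.05 and 52.7 CPM in dexamethasone replicate 2, and their values without dexamethasone replicate 2 were −2.50 and −2.57. Both passed without that library, without either PBS library and without the filter on low counts, but not without dexamethasone replicate 1 (−0.61 and −0.41). The list shares Th, Dbh and Pnmt with the chromaffin markers.

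**Figure D5:**
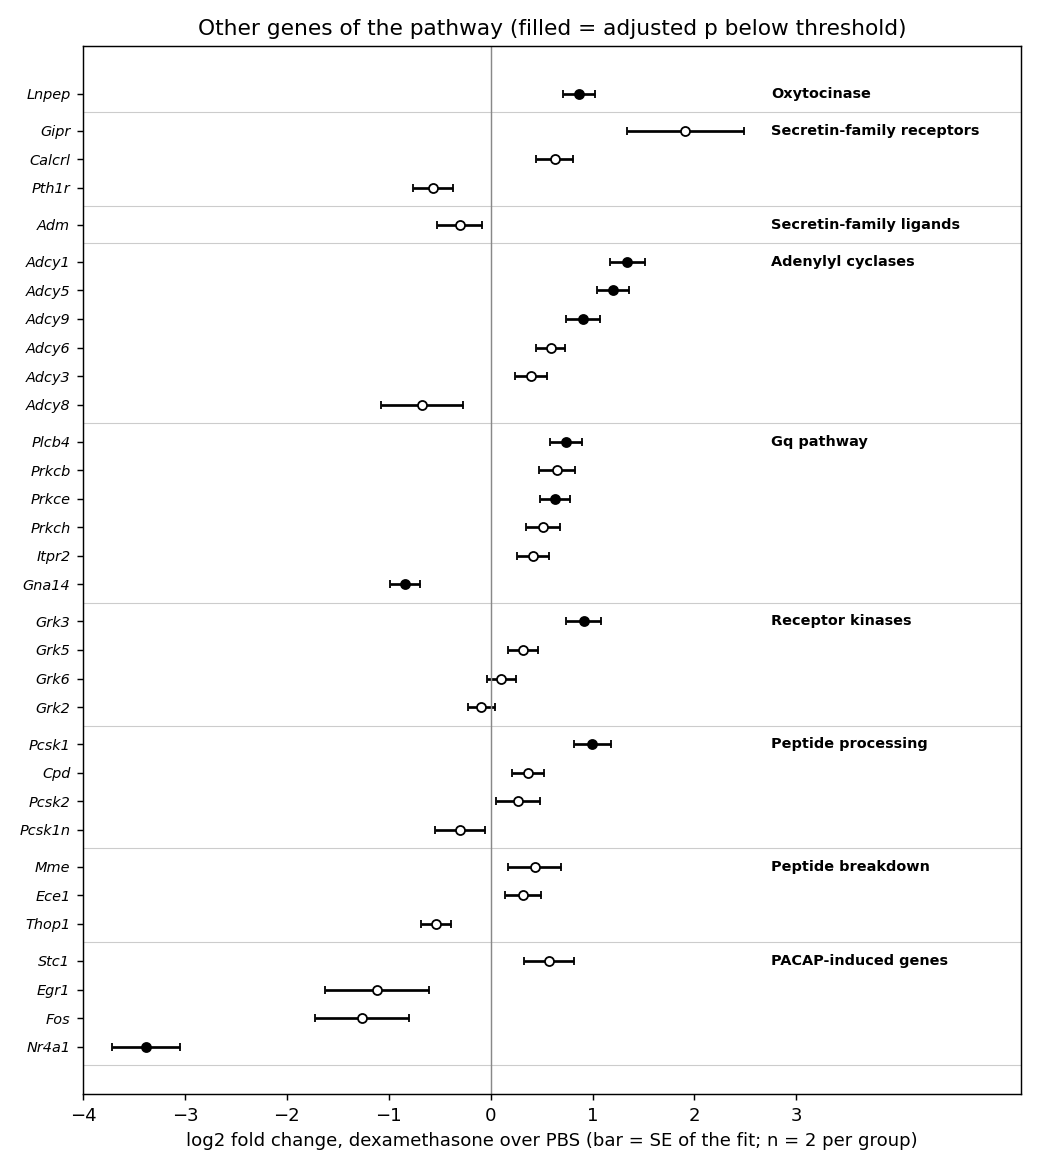
Log2 fold change, dexamethasone over PBS, of the named pathway genes by list, with the SE of the fit as bars (n = 2 libraries per group); filled points passed edgeR's quasi-likelihood test at a Benjamini-Hochberg threshold of 0.05. The adenylyl cyclase genes Adcy1, Adcy5 and Adcy9 lie to the right of 0, from 0.91 to 1.34, and Gna14 and Nr4a1 are the filled points to the left.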

How the data were processed

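The authors deposited one table of raw read counts per gene, whole numbers and not normalized, with symbols, GRCm38 coordinates and gene lengths. The submitters' processing notes name mm10 (GRCm38), STAR 2.5, HTSeq 0.6.1 and CASAVA 1.8 without role or order. Whether counting used strand is not given in the sources at hand. Columns were assigned from their initials (D, dexamethasone; S, saline) and replicate numbers. For 7 of the 8 genes the deposited length equals the merged exon length of GENCODE M21. Adcyap1 differs, at 2088 bases deposited against 3777. GENCODE M21 lists an antisense gene over Avpr1a and over Vipr2, in both cases with 0 shared exon bases.

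Genes were kept with filterByExpr (16027 of 27040 with at least 1 count), scaled with TMM and tested with edgeR 4.0.16 (glmQLFit, glmQLFTest; R 4.3.3) for the effect of group alone. Benjamini-Hochberg adjustment ran over the whole table, and 0.05 was the limit. The SE was taken as |log2 fold change| / √F, and log2 CPM has a prior count of 2. The design left 2 residual degrees of freedom per gene, which come from differences among pooled libraries. The quasi-likelihood p-values also draw on dispersion shared across genes, so they do not reflect those 2 degrees of freedom alone. Replicates differed by a chi-square of 24.1 (dexamethasone) and 31.7 (PBS) per degree of freedom, so none was a repeat. The fit was tested on simulated counts. Of the 8 genes, Adcyap1 and Avpr1b failed the filter. The genes and all lists (the 9 pathway lists and the cell markers reported above) were chosen with earlier results of these data known. Named genes were those of each pathway list that passed and the 3 others of smallest p (Gnas, Gnaq and Gna11 were added after their values were seen), and the 3 most alike genes per receptor or ligand of at least 1 CPM. Alternatives were RLE scaling, library totals, no filter, DESeq2 1.42.0, limma-voom (limma 3.58.1), a lowess trend of log2 CPM on log2 gene length removed from each library, the replicate number as a block, and leaving out each library. Protein sequences were not analysed here.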

Additional observations from a re-analysis of the deposited data

How the results depend on the processing

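Counts of calls moved widely with the fit, so the share called is a soft background. Against 523 genes higher and 219 lower, library totals alone gave 893 higher (83.2% of calls against 70.5%, with all genes shifted to a median of 0.10 instead of 0.01 on the log2 scale), no filter gave 1384 and 1329, DESeq2 914 and 870, and the removal of the length trend 322 higher. Leaving out a library gave 337 to 1595 higher and 147 to 1747 lower. Pathway genes higher numbered 8, and 13 without the filter and 4 with the length trend removed; those lower numbered 2, and 6 without the filter. Leaving out a library gave 6 to 13 pathway genes higher and 3 to 10 lower, the highest of each without PBS replicate 1. With the replicate block there were 244 genes higher, 89 lower, and 2 pathway genes higher and 1 lower. Deviations from the group means of libraries with the same number correlated at −0.03 across genes. This value over all genes cannot show whether the numbers mark a pairing that affects some of them.

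Adcyap1r1 stood at 0.95 with the length trend removed and at 0.96 to 1.23 on leaving out a library, Oxtr at −1.36 to −0.89, and Vip at −0.87 to 0.85. The added scale, a difference of mean log2 CPM chosen after seeing the data, kept every direction. On leaving out a library Vipr1 ran from 0.08 (without PBS replicate 2) to 0.75 (without PBS replicate 1), Vipr2 from 0.69 to 1.10 and Avpr1a from −0.67 (without dexamethasone replicate 1) to −0.30 (without dexamethasone replicate 2). The cause was not tested for any of these, apart from the number of genes tested without the filter (27040). Low counts limit Vipr1 and Vipr2, and leave Adcyap1 and Avpr1b without a comparison.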
